A study of Mus musculus with 20 samples.

Results

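Transcripts of 10 genes of the ATF4 and unfolded protein response pathways were followed across 20 RNA-seq libraries of DC2 cells, an immortalised line derived from principal cells of the mouse distal caput epididymis. The genes (Atf4, Ddit3, Trib3, Chac1, Asns, Sesn2, Xbp1, Hspa5, Herpud1 and Ppp1r15a) were taken by symbol from the 21509 protein-coding genes of each deposited table, and all 10 passed the filter of a mean of at least 1 TPM (transcript abundance as a part of the library's total, corrected for transcript length). Ddit3 fills 2 entries, and the second, whose locus overlaps the first on the same strand, was at 0 in all 20 libraries and was left out. In the flow experiment, 6 libraries came from cells under a shear of 1 dyn/cm2 that lasted 3 h and 6 from cells kept static for the same time. In the siRNA experiment, 4 libraries carried a mixture of siRNAs against Ift88, a transport protein needed to build primary cilia, and 4 a scrambled control siRNA. According to the study's methods, cells were grown in microchannels at low serum before sampling, and both siRNA groups were under flow, which their labels do not name. All libraries come from the same line, which is grown below body temperature, and the study's methods call the 6 libraries of each condition experimental replicates. Neither the methods nor the labels say what was repeated, so p-values measure the spread between these libraries. For flow replicate 6 the title says flow while the treatment label says static, and the title was followed, as the name of its deposited column also marks it as flow.

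In the integrated stress response, kinases that sense unfolded protein, missing amino acids, viral RNA or missing haem phosphorylate the translation factor eIF2. General translation slows, while translation of the Atf4 transcript increases, and the ATF4 protein then activates genes of amino acid supply, redox balance and, under lasting stress, cell death. The unfolded protein response adds 2 further branches from the endoplasmic reticulum (ER), in which IRE1 splices the Xbp1 transcript and ATF6 is cut to a transcription factor, and both raise chaperones and degradation factors of the ER. Principal cells secrete much of the protein of the epididymal fluid, so their ER is heavily used in the tissue. Gene-level TPM show transcript abundance, and do not show eIF2 phosphorylation, Atf4 translation or Xbp1 splicing.

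Promoters of 6 of the 10 members carried at least 1 of the motifs searched, which are sequences by which these branches and cyclic AMP signals are known to act, and the windows of Atf4, Ddit3, Sesn2 and Xbp1 held none of them. The stretches below are shown because the members are set against them in the results. Promoter windows from 250 bases before to 50 bases after the start were taken from RefSeq (GRCm38.p6), matched for 10 of 10 members and searched on both strands. The ER stress element (ERSE, CCAAT and CCACG with 9 bases between them), bound by ATF6 with NF-Y, was found in Hspa5, and in 0.119% of 32851 promoters. The second form (ERSE-II, ATTGG and CCACG with 1 base between them) was found in Herpud1, and in 0.0365% of promoters. The C/EBP-ATF response element (CARE, TGATGNAA, where N is any base), bound by ATF4 with a C/EBP partner, was found in Chac1, Asns, Herpud1 and Trib3, and in 3.97% of promoters. The cyclic AMP response element (CRE, TGACGTCA) was found in Ppp1r15a and in 1.79% of promoters. The unfolded protein response element (UPRE, TGACGTGG) overlaps in its reverse form with the CCACG of the ERSE and was in none of the 10 windows, against 0.676% of promoters. Capitals mark the motif, read along the gene's own strand, and a match is a description of the letters only. The stretches are chr2:34772020-34772049 (plus strand, Hspa5), chr8:94386302-94386402 (plus, Herpud1), chr2:119351034-119351071 (plus, Chac1), chr6:7693214-7693243 (minus, Asns) and chr7:45526269-45526295 (minus, Ppp1r15a). Those of Hspa5 and Asns lie within a transcript of the gene in GENCODE M21 and the other 3 lie before its first base.
Hspa5: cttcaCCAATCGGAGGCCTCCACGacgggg
Herpud1: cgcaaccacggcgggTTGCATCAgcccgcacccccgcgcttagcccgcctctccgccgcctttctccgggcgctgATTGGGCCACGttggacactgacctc
Chac1: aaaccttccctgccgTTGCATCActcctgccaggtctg
Asns: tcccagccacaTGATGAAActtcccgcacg
Ppp1r15a: accccgcctctccggTGACGTCAgcac

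Both libraries of replicate 6 in the flow experiment stood apart for many of the genes described here, and the differences of those members are given with and without them. Every library summed to 1000000 TPM, and between 15292 and 16682 genes were above 0. The 2 libraries of replicate 6 had the most genes above 0 of the flow experiment (16300 and 16562, at most 15967 in the others), while the number of reads behind a value is unknown from TPM. Among markers of principal and epithelial cells, Krt18 and Cldn1 passed the filter in the flow experiment (means of 52.1 and 6.07 TPM), while Crisp1, Lcn8 and Rnase9 were at 0, so the label of the line is carried by few of its tissue's markers. Markers of basal cells, clear cells and sperm were under the filter in both tables, as were those of fibroblasts and endothelial cells except 1 of each list in 1 table. Ift88 averaged 1.30 ± 0.326 TPM in the libraries with siRNA against it, called silenced below, and 4.14 ± 0.0541 TPM in the controls (SD, n = 4 each), with no overlap (difference −1.17 on the log2(TPM + 1) scale, SE 0.13, limma adjusted p = 0.00212).

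Whether shear changed the members was asked by comparing flow with static libraries as log2(TPM + 1) with limma over 11388 genes, with Benjamini-Hochberg adjustment. A gene was called where the adjusted p was under 0.05 and the groups differed by over 1.5-fold. This fit did not pair libraries by replicate number, so spread shared by same-numbered libraries stays in its intervals and p-values. None of the 10 members was called, against 12 of 11388 genes (0.105%). The study's own count-based test, at the same thresholds, reported more genes than this fit. At an unadjusted p under 0.05, passed by 3.85% of all genes, 1 member was higher (2.05% of all genes) and 0 were lower (1.79%). Of the members' mean differences, 5 were positive and 5 negative, with a median of 0.00 on the log2 scale, beside −0.03 over all genes tested, of which 38.8% were positive. After median-of-ratios scaling 7 of the 10 were positive and 3 negative, with a median of 0.03. The split also moved with single libraries. It was 3 positive and 7 negative without static replicate 1 (median −0.02), and 7 and 3 without static replicate 4 (median 0.06). For 0 members did all flow libraries lie above all static libraries (0.492% of all genes) or below them (0.0527%).

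Chac1, whose enzyme degrades glutathione and which is a target of ATF4, had the smallest p. It ranged from 5.51 to 9.75 TPM under flow (median 7.60) and from 4.02 to 7.50 TPM in static cells (median 4.94). The ranges overlapped, because the highest static library, replicate 2, lay above 3 of the flow libraries, but flow was above static in 6 of 6 same-numbered pairs, which was so for 1.98% of all genes tested. Flow was below static in all 6 pairs for 0 members (2.16% of all genes). The means were 7.45 ± 1.54 and 5.20 ± 1.24 TPM (SD, n = 6 each), a difference of 0.45 (SE 0.15, 95% interval 0.13 to 0.77) with a limma p of 0.00918 and an adjusted p of 0.780. Chac1 was at the lowest level of the 10 members in this experiment, and its adjusted p was 0.123 when the replicate number was fitted as a block.

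Ppp1r15a encodes GADD34, the stress-induced subunit that returns eIF2 to its unphosphorylated form. It ranged from 42.6 to 82.4 TPM under flow (median 54.8) and from 32.3 to 76.1 TPM in static cells (median 41.7), and flow was above static in 5 of 6 pairs. The difference was 0.34 (SE 0.19, 95% interval −0.06 to 0.74, limma adjusted p = 0.998). Its paralogue Ppp1r15b, the constitutive subunit, averaged 40.2 ± 5.02 TPM in flow and 33.2 ± 2.49 TPM in static libraries (SD, n = 6 each), with a limma p of 0.00959 and an adjusted p of 0.800.

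Atf4, the transcription factor of the response, ranged from 294 to 363 TPM under flow (median 336) and from 249 to 350 TPM in static cells (median 306). The difference was 0.12 with a 95% interval of −0.05 to 0.30, which leaves out a 1.5-fold change in either direction (limma adjusted p = 0.998). Ddit3 encodes CHOP, the factor of prolonged ER stress, and ranged from 155 to 373 TPM under flow (median 174) and from 145 to 686 TPM in static cells (median 172). Its difference of −0.16 had the widest interval of the members, −0.89 to 0.57. Ddit3 overlaps Mars1, a tRNA synthetase gene on the opposite strand, and whether strand was used in read assignment is not given in the sources used here. Mars1 was between 86.4 and 125 TPM over the 12 libraries.

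The other targets of ATF4 had means close to each other in the 2 groups. Trib3, a pseudokinase that restrains ATF4 and CHOP, averaged 10.9 ± 2.59 TPM in flow and 10.9 ± 2.39 TPM in static libraries (SD, n = 6 each). Asns, asparagine synthetase, averaged 68.9 ± 14.8 and 67.7 ± 10.4 TPM, with a 95% interval of the difference from −0.28 to 0.30. Sesn2, sestrin 2, a leucine sensor that inhibits mTORC1, averaged 11.1 ± 3.23 and 10.9 ± 1.58 TPM, with an interval from −0.34 to 0.32. The library furthest from its group was flow replicate 2 for Sesn2, at 17.0 TPM.

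For the members of the ER branches the libraries were spread widely within both groups. Xbp1, the factor that IRE1 activates by splicing, ranged from 16.7 to 33.1 TPM under flow and from 16.9 to 33.9 TPM in static cells, with a difference of −0.09 (95% interval −0.50 to 0.32). Hspa5 encodes BiP, the main ER chaperone, and ranged from 287 to 805 TPM under flow and from 309 to 723 TPM in static cells, with a difference of 0.06 (95% interval −0.44 to 0.57). Herpud1, a membrane component of ER-associated degradation, ranged from 19.99 to 45.5 and from 22.3 to 47.1 TPM, with a difference of −0.10 (95% interval −0.52 to 0.33). The limma adjusted p was 0.998 for each of the 3 genes.

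**Figure D1:**
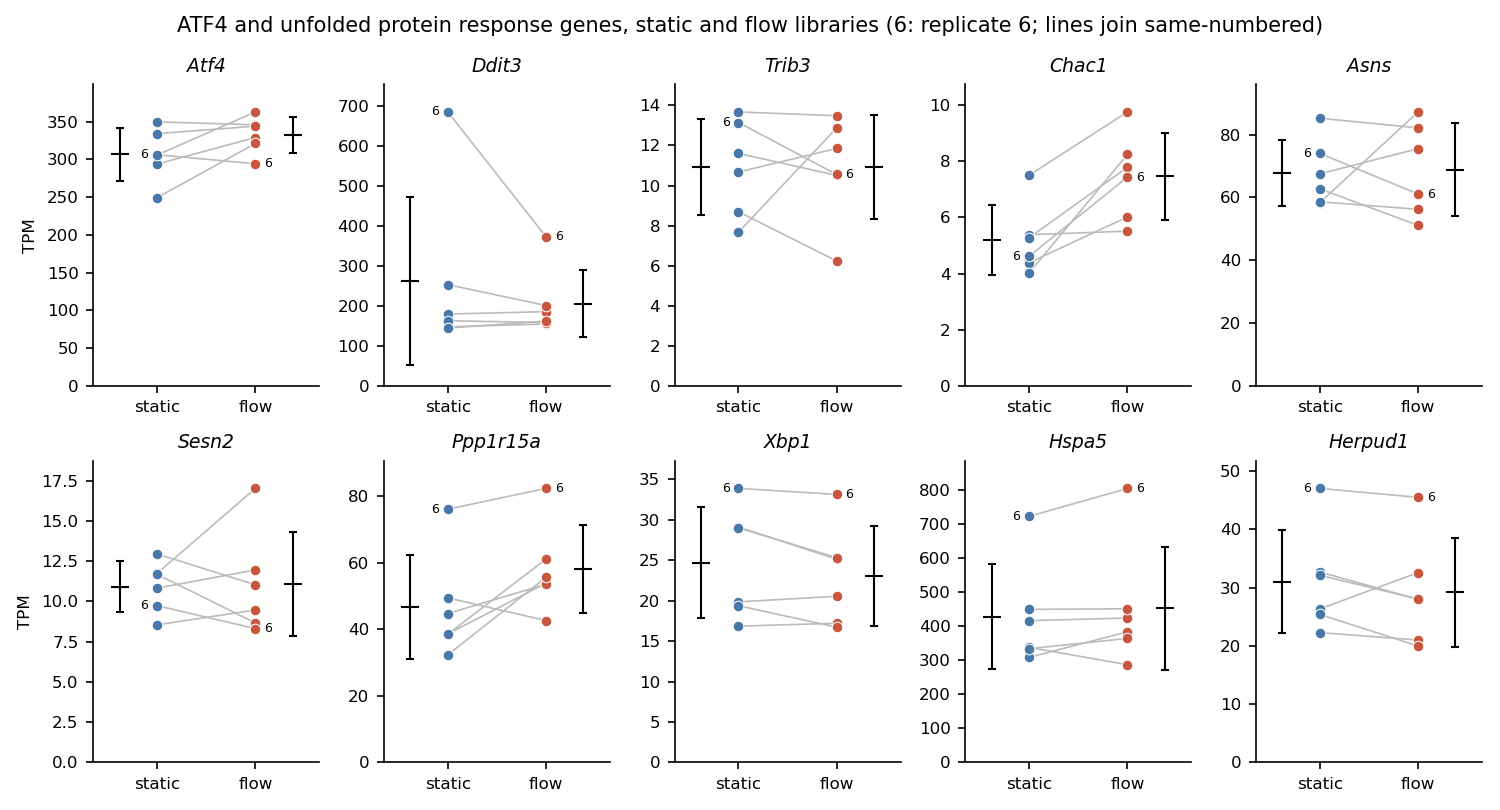
TPM of the 10 genes in the 6 static (blue) and 6 flow (red) libraries, on a linear axis from 0 that differs between panels. Grey lines join same-numbered libraries, bars at the sides give the mean and SD, and the label 6 marks replicate 6, which is the highest point of both groups for Ddit3, Ppp1r15a, Xbp1, Hspa5 and Herpud1, while Chac1 is higher at the flow end of all 6 lines.

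Replicate 6 stood apart in both groups for one subset of the members, which was singled out after the values were seen and is described without a test. For Ddit3, Hspa5, Xbp1, Herpud1 and Ppp1r15a, both libraries of replicate 6 were above all other 10 libraries, and this was so for 5 of 10 members against 9.38% of all genes tested. Hspa5 was at 805 TPM (flow) and 723 TPM (static), and between 287 and 451 TPM in the other 10 libraries. Ddit3 was at 373 TPM (flow) and 686 TPM (static), and between 145 and 254 TPM in the others. Herpud1 was at 45.5 and 47.1 TPM against 19.99 to 32.7 TPM, and Xbp1 at 33.1 and 33.9 TPM against 16.7 to 29.1 TPM. Ppp1r15a was at 82.4 and 76.1 TPM against 32.3 to 61.1 TPM. Atf4, Trib3, Chac1, Asns and Sesn2 did not stand apart, and Atf4 in replicate 6 was at 294 and 306 TPM, inside the range of 249 to 363 TPM of the others. Of the 5 members that stood apart, Hspa5 holds the ERSE, Herpud1 the ERSE-II and a CARE, and Ppp1r15a the CRE. Ddit3 and Xbp1 hold none of the motifs searched, and the other genes with a CARE did not stand apart. Since the 5 were picked by these same values, the motifs describe the windows only, and a link to replicate 6 was not tested. After median-of-ratios scaling these 5 members stood apart, against 5.63% of all genes.

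The same libraries were high for the chaperones of the ER. Of 20 genes for ER chaperones and folding enzymes, 16 were above all other 10 libraries in both libraries of replicate 6, and 16 of 20 were so after scaling. Hsp90b1, the ER form of HSP90, was at 1027 and 1023 TPM against 552 to 744 TPM in the other 10 libraries. Calr (calreticulin) was at 725 and 685 TPM against 382 to 597 TPM, and Sdf2l1, a component of the chaperone complex with BiP, was at 89.9 and 94.99 TPM against 44.7 to 65.7 TPM. Dnajb9, a BiP cochaperone and known target of XBP1, was at 11.9 and 13.4 TPM against 7.19 to 9.44 TPM. Among genes for ER-associated degradation and translocation, 8 of 19 stood above, among stress sensors and eIF2 factors 3 of 18 (Ern1, Atf6 and Eif2ak2), and among genes of amino acid synthesis and transport 2 of 18 (Phgdh and Slc3a2). The last 2 shares (16.7% and 11.1%) were near the 9.38% of all genes. None of 13 aminoacyl-tRNA synthetases and none of 17 other stress regulators did so. After scaling the counts were 7 for ER degradation, 2 for sensors (without Atf6) and 1 for amino acid genes (without Phgdh), against 5.63% of all genes. In the opposite direction, both libraries of replicate 6 were below the other 10 for 0 members, 2 stress regulators and 1 amino acid gene, against 2.79% of all genes. Stc2, a secreted glycoprotein gene induced by ATF4, was at 6.60 and 7.39 TPM against 13.1 to 43.9 TPM, and Atf5 at 32.7 and 30.7 TPM against 33.3 to 44.5 TPM. The amino acid transporter Slc38a2 was at 58.1 and 56.6 TPM against 68.3 to 87.8 TPM. Replicates 4 to 6 of both groups together lay above replicates 1 to 3 for 2 of 10 members, Xbp1 and Hspa5 (8.6% of all genes), and below them for 0 (0.834%). This was so for 10 of 20 ER chaperones, and for 3 of 20 after scaling, when it was so for 3.44% of all genes.

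Set against each gene's mean over the 12 libraries, the median of the ER chaperones was 0.31 (flow) and 0.36 (static) in replicate 6 on the log2 scale, and between −0.23 and 0.12 in the others. The median over all genes tested was 0.03 and 0.12 in replicate 6. Cd68, a lysosomal membrane gene used here as a macrophage marker, also had its highest values in replicate 6 (39.6 and 64.0 TPM, at most 22.8 TPM in the others). So did Krt8 (1.17 and 1.09 against at most 0.901 TPM), Pecam1 (0.762 and 0.918 against 0.588), Pdgfra and Krt5, all with means under the filter. The other markers of their lists did not stand above the other 10 libraries in both. Of the other 3 macrophage markers, Adgre1 was at 0 in all 12 libraries, Ptprc was at most 0.0878 TPM and Csf1r at most 1.34 TPM, and in bulk RNA more cells of a type and more RNA per cell cannot be told apart. The part of such cells in the result was not tested, and the labels name no batch that would set replicate 6 apart. The groups were also compared without replicate 6, an alternative chosen after the values were seen. Then 0 members were called, against 4 genes of 11388. Of the 5 members, Hspa5 differed by 0.05, Xbp1 by −0.10, Herpud1 by −0.10 and Ppp1r15a by 0.39 (limma adjusted p = 0.969). The difference of Ddit3 went from −0.16 to −0.019.

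**Figure D2:**
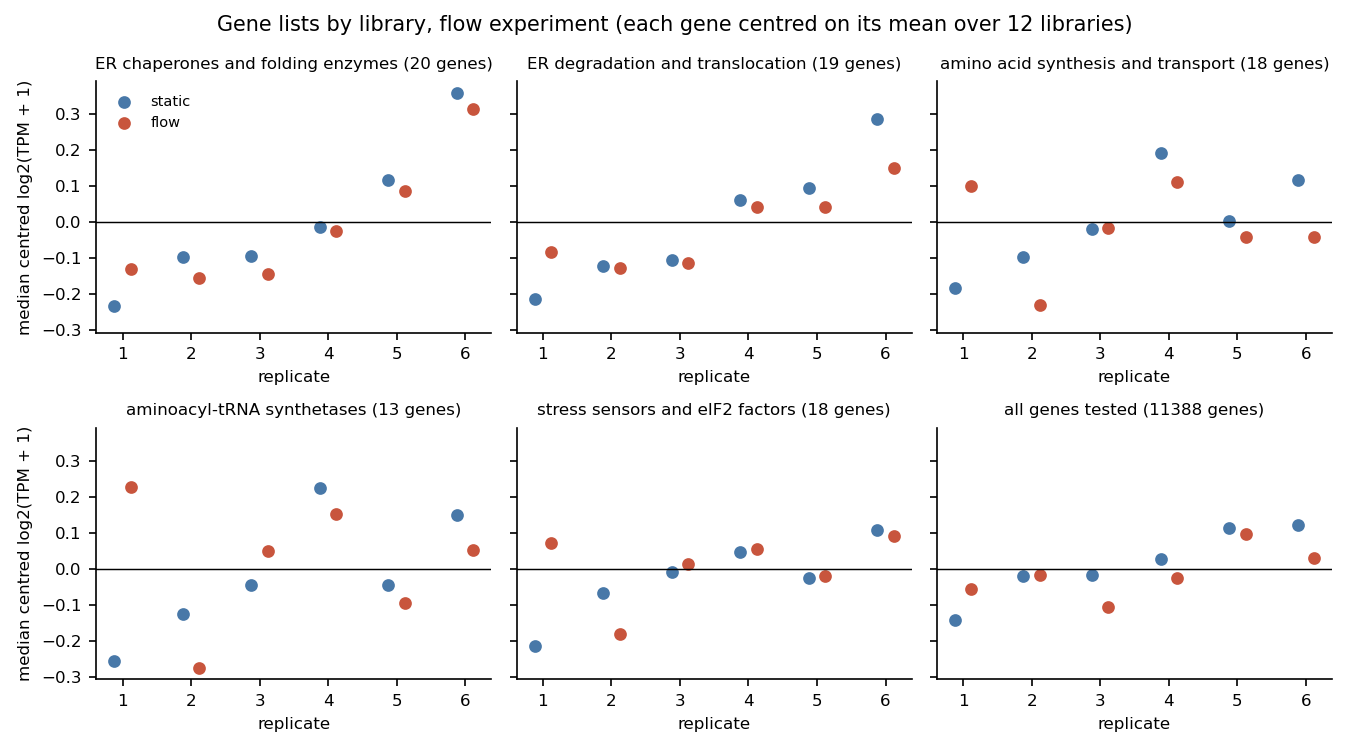
Median over each gene list of log2(TPM + 1), centred per gene on its mean over 12 libraries, by replicate number for static (blue) and flow (red) libraries. ER chaperones reach 0.31 and 0.36 in replicate 6, above every other library, while the aminoacyl-tRNA synthetases and all genes tested show no such separation of replicate 6.

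The gene nearest to a member in profile was sought for the member with the largest spread, Ddit3 (SD 0.67 on the log2 scale over 12 libraries). By the mean absolute difference between centred log2(TPM + 1) profiles, the nearest were Cd68 (0.130), Bst1 (0.156), 1700037C18Rik (0.172), Des (0.189) and Msh5 (0.189). All 5 had their highest values in the libraries of replicate 6, and for Bst1 these were 5.58 and 5.66 TPM against at most 2.23 TPM elsewhere. The libraries share their replicate numbers, so this likeness over 12 libraries is a description.

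The other genes of the pathways gave no call for flow, 0 of 105 tested genes against 0.105% of all genes, and at an unadjusted p under 0.05 there were 4 higher (2.05% of all genes) and 0 lower (1.79%). Their median difference was 0.00, and by list it was 0.01 for stress sensors and eIF2 factors, 0.03 for amino acid genes, 0.03 for aminoacyl-tRNA synthetases, −0.11 for other stress regulators, −0.01 for ER chaperones and −0.01 for ER degradation. Several of these medians changed with single libraries. Without flow replicate 6 it was 0.02 for the stress regulators and −0.08 for ER chaperones (0 of 20 higher). Without flow replicate 1 it was −0.02 for the synthetases and 0.01 for ER chaperones. The 4 genes were Ppp1r15b, given above, and 3 of the other stress regulators. Trib1, a pseudokinase related to Trib3, averaged 36.7 ± 23.9 TPM in flow and 8.73 ± 1.05 TPM in static libraries (SD, n = 6 each), with no overlap (difference 1.72, SE 0.32, limma adjusted p = 0.0670). Atf3, a stress-induced factor of the ATF family that growth signals also induce, was at 179 ± 192 and 23.6 ± 4.03 TPM, with no overlap (difference 2.07, SE 0.60, limma adjusted p = 0.444). Both genes were split by replicate number under flow. Atf3 was at 42.3, 31.5 and 37.9 TPM in flow replicates 1 to 3 and at 117, 448 and 398 TPM in 4 to 6, against 18.4 to 28.9 TPM in static libraries, and its difference was 0.81 in replicates 1 to 3 alone and 3.34 in 4 to 6 alone. Trib1 was between 15.8 and 19.8 TPM in flow replicates 1 to 3 and between 36.8 and 74.1 TPM in 4 to 6, with differences of 0.85 and 2.59. Gdf15, a secreted stress cytokine named here after its values were seen, was at 330 ± 239 and 145 ± 82.1 TPM and above static in 6 of 6 pairs (difference 1.04, limma adjusted p = 0.998). When replicate numbers were fitted as a block, Trib1 (limma adjusted p = 0.0247) and Gdf15 (limma adjusted p = 0.00135) were called higher, beside 68 of all genes (0.597%), and 0 of the 10 members.

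Of the remaining genes with the smallest p in their lists, none reached an unadjusted p under 0.05 for flow. Eif2s1, the subunit of eIF2 that is phosphorylated, was at 75.7 ± 10.9 and 70.3 ± 4.58 TPM (SD, n = 6 each). The amino acid transporter Slc1a4 was at 5.67 ± 0.887 and 7.05 ± 1.99 TPM, and the folate enzyme gene Aldh1l2 at 27.7 ± 5.92 and 32.6 ± 8.31 TPM. Among synthetases, Sars was at 301 ± 15.4 and 320.5 ± 29.7 TPM and Wars1 at 41.5 ± 5.58 and 39.0 ± 4.41 TPM. The folding enzyme P4hb was at 446.5 ± 78.6 and 490 ± 69.1 TPM, the cyclophilin Ppib at 472 ± 28.5 and 489 ± 26.6 TPM, the ER lectin Os9 at 84.4 ± 14.2 and 93.6 ± 8.22 TPM and Derl1, a channel component of ER degradation, at 80.8 ± 4.21 and 83.5 ± 3.96 TPM.

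Whether lowering Ift88 changed the members was asked in the same way over 11209 genes of the siRNA experiment. The silencing was partial, as the Ift88 levels given above show. None of the 10 members was called, against 25 genes (0.223%), and at an adjusted p under 0.05 with no fold threshold it was 0 members against 0.633% of genes. At an unadjusted p under 0.05, 6 members were higher with Ift88 siRNA (9.02% of all genes) and 0 lower (4.91%). The mean was higher for 7 of 10 members, against 55.0% of all genes, and the median difference of the members was 0.23 on the log2 scale against 0.02 over all genes. For 3 members, Herpud1, Xbp1 and Ppp1r15a, every Ift88 siRNA library lay above every control library, which was so for 5.79% of all genes, and for 0 members every library lay below (2.79%). The members share regulators and are not independent of each other.

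Herpud1 had the smallest p of the members. It was at 218, 217, 230.4 and 208 TPM in the 4 Ift88 siRNA libraries and at 171, 182, 200.3 and 190.3 TPM in the 4 controls. The groups did not overlap, and the means of 218.5 ± 9.20 and 186 ± 12.4 TPM (SD, n = 4 each) gave a difference of 0.23 (SE 0.06, 95% interval 0.10 to 0.37) with a limma p of 0.00239 and an adjusted p of 0.120. Its adjusted p ranged from 0.0372, with library weights, to 0.312 over 13 alternatives, and its interval stayed below a 1.5-fold change.

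Xbp1 was at 121, 117, 109 and 116 TPM with Ift88 siRNA and at 94.4, 105, 94.0 and 103 TPM in the controls. The lowest of the former was above the highest of the latter, and the difference was 0.22 (SE 0.06, 95% interval 0.08 to 0.36, limma adjusted p = 0.146). Ppp1r15a was at 118, 107, 108 and 104 TPM with Ift88 siRNA and at 87.8, 99.6, 62.4 and 91.2 TPM in the controls, where replicate 3 was the lowest. Its difference of 0.37 (SE 0.12, 95% interval 0.12 to 0.63) was the largest of the members, with a limma p of 0.00679 and an adjusted p of 0.185.

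The other 3 members with an unadjusted p under 0.05 had overlapping groups. Ddit3 was at 187, 167, 152 and 166 TPM with Ift88 siRNA and at 119, 158, 119 and 169 TPM in the controls, where 2 libraries lay within the range of the Ift88 siRNA group and 2 below it (difference 0.26, SE 0.11, limma adjusted p = 0.320). Chac1 was at 80.4, 69.2, 70.9 and 64.4 TPM against 45.8, 64.94, 60.3 and 64.95 TPM (difference 0.28, SE 0.11, limma adjusted p = 0.285). Sesn2 was at 99.1, 85.0, 65.1 and 68.6 TPM against 56.0, 70.9, 55.7 and 71.9 TPM (difference 0.31, SE 0.13, limma adjusted p = 0.320). The overlap came from the lowest silenced library for Chac1 and from the 2 lowest for Sesn2.

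Atf4 itself had a difference of the opposite sign. It was at 185, 180, 185 and 180 TPM with Ift88 siRNA and at 176, 192, 205 and 210.5 TPM in the controls, with 3 of the 4 controls above every Ift88 siRNA library (difference −0.10, SE 0.06, 95% interval −0.24 to 0.04, limma adjusted p = 0.500). Hspa5 was at 1329, 1339, 1302 and 1236 TPM against 1310, 1362, 1261 and 1321 TPM, and its interval of −0.13 to 0.10 was among the narrowest of the members (limma adjusted p = 0.943). Asns averaged 230.1 ± 3.40 and 233 ± 13.9 TPM (SD, n = 4 each; interval −0.14 to 0.11), and Trib3 52.2 ± 2.19 and 48.0 ± 1.95 TPM (interval −0.03 to 0.26). Of the 4 genes with a CARE, Herpud1 and Chac1 were thus at an unadjusted p under 0.05, and Trib3 and Asns were not.

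**Figure D3:**
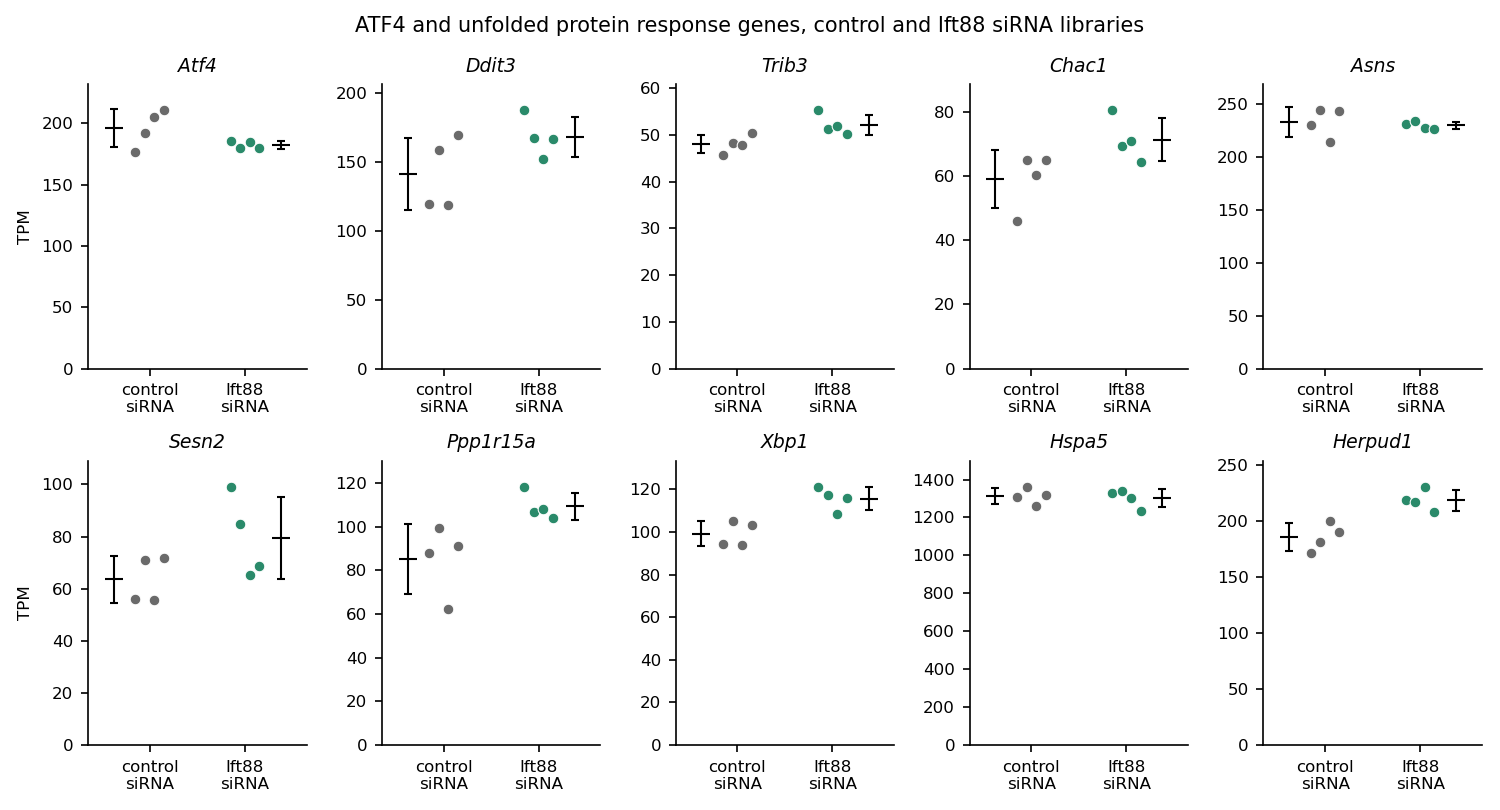
TPM of the 10 genes in the 4 control siRNA (grey) and 4 Ift88 siRNA (green) libraries, each group in replicate order from left to right, on a linear axis from 0 that differs between panels, with the mean and SD at the sides. The green points lie above all grey points for Ppp1r15a, Xbp1 and Herpud1, and the groups overlap for the other 7 genes.

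**Figure D4:**
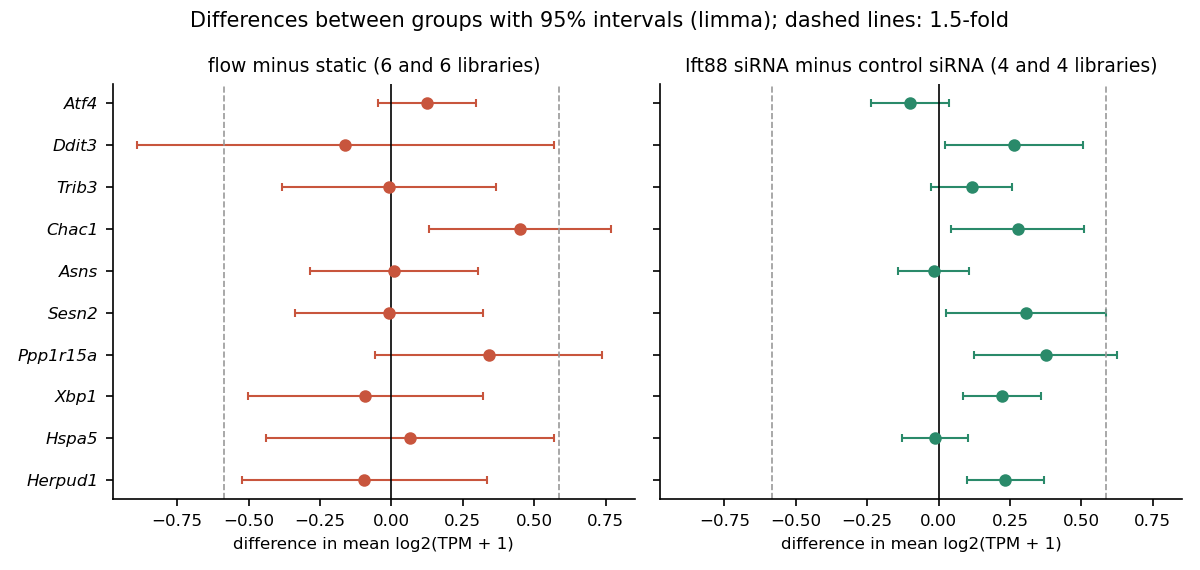
Differences between groups in mean log2(TPM + 1) with 95% limma intervals, flow minus static on the left and Ift88 siRNA minus control siRNA on the right, on the same axis. The interval excludes 0 for Chac1 on the left and for Ddit3, Chac1, Sesn2, Ppp1r15a, Xbp1 and Herpud1 on the right, and no point reaches the dashed lines at 1.5-fold.

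Of the other pathway genes, 0 of 105 were called in the siRNA comparison, against 0.223% of all genes. Without the fold threshold, 2 were higher at an adjusted p under 0.05 and 0 lower, against 0.633% of all genes. These were Atf3, at 111 ± 10.2 TPM in silenced and 77.2 ± 4.89 TPM in control libraries (SD, n = 4 each, difference 0.51, SE 0.07, limma adjusted p = 0.00922), and Pdia6, an ER disulfide isomerase, at 327 ± 16.0 and 268 ± 5.93 TPM (difference 0.29, SE 0.05, limma adjusted p = 0.0424). The adjusted p of Pdia6 was over 0.05 without the filter (0.0745), after median-of-ratios scaling (0.101) and without any single library (0.0655 to 0.148), and that of Atf3 was over 0.05 without the filter (0.0957). At an unadjusted p under 0.05, 17 of the 105 were higher (9.02% of all genes) and 5 lower (4.91%).

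ER chaperones and folding enzymes had a mean higher with Ift88 siRNA for 18 of 20 genes, and for 16 of 20 after median-of-ratios scaling. Their median difference was 0.13, against 0.02 over all genes, and 8 of 20 did not overlap between the groups (higher), against 5.79% of all genes. Sdf2l1 was at 97.8 ± 2.15 and 76.7 ± 9.20 TPM (SD, n = 4 each, difference 0.36, SE 0.08, limma adjusted p = 0.0811), and Hsp90b1 at 871 ± 16.3 and 791 ± 29.4 TPM (difference 0.14, limma adjusted p = 0.252). Hspa5, the chaperone of this compartment with the highest level, did not separate the groups. ER degradation genes had a median difference of 0.07, and their smallest p values were those of Derl1, at 145 ± 2.34 and 132 ± 2.51 TPM (limma adjusted p = 0.293), and Sec11c, a signal peptidase subunit, at 263 ± 31.1 and 303 ± 25.7 TPM (limma adjusted p = 0.311).

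Genes of amino acid supply, targets of ATF4, mostly had a lower mean in silenced libraries. Of 18 genes of amino acid synthesis and transport, 15 did so, with a median difference of −0.07, while 55.0% of all genes had a higher mean. At an unadjusted p under 0.05, 0 were higher and 1 was lower, a share near that of all genes (4.91%). That gene was Slc7a1, a transporter of cationic amino acids, at 65.5 ± 9.03 and 75.0 ± 4.52 TPM (SD, n = 4 each, limma adjusted p = 0.355), and Shmt2, a mitochondrial enzyme of serine use, was at 200 ± 6.69 and 214 ± 6.18 TPM (limma adjusted p = 0.433). The aminoacyl-tRNA synthetases had a median of 0.05, with Aars at 176 ± 8.48 and 159 ± 7.31 TPM (limma adjusted p = 0.293) and Mars1 at 131 ± 5.93 and 121 ± 6.60 TPM (limma adjusted p = 0.428). Among stress sensors and eIF2 factors (median −0.02), Ern1, which encodes the kinase IRE1 that splices Xbp1, was at 9.18 ± 0.635 and 11.6 ± 1.84 TPM and did not overlap (lower, difference −0.30, SE 0.12, limma adjusted p = 0.277). Eif2b2, a subunit of the exchange factor of eIF2, was at 54.1 ± 2.80 and 48.3 ± 3.41 TPM (limma adjusted p = 0.341). The other stress regulators had a median of 0.08, and Sesn1, a paralogue of Sesn2, was at 22.9 ± 2.26 and 16.9 ± 2.17 TPM (limma adjusted p = 0.0978).

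The member with the largest spread in the siRNA experiment was Ppp1r15a (SD 0.28 on the log2 scale over 8 libraries). The nearest profiles were those of Tnfrsf23 (mean absolute difference 0.0556), Kcnab3 (0.0573), Lman1 (0.0607), H2-D1 (0.0647) and Fth1 (0.0675). Lman1 is a cargo receptor between ER and Golgi and ranged from 93.1 to 161 TPM.

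The members' levels differed between the experiments, which were deposited as separate tables and share no library, so the values are set side by side with no test. In every siRNA library 7 members were above every library of the flow experiment, against 25.8% of 11702 genes, and Atf4 was below, against 25.9% of genes. Chac1 was between 4.02 and 9.75 TPM in the flow experiment and between 45.8 and 80.4 TPM in the siRNA experiment. Sesn2 was between 8.31 and 17.0 and between 55.7 and 99.1 TPM, and Herpud1 between 19.99 and 47.1 and between 171 and 230.4 TPM. Trib3, Xbp1, Asns and Hspa5 had means 4.59, 4.50, 3.39 and 2.97 times as high in the siRNA table. Atf4 was between 249 and 363 TPM in the flow experiment and between 176 and 210.5 TPM in the siRNA experiment, and Ddit3 and Ppp1r15a overlapped. ER chaperones went both ways, with 8 of 20 above and 3 below, and Calr and Hyou1 were among those below. The siRNA libraries were also transfected, which cannot be told apart from other differences between the experiments.

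Within each group the order of the levels was similar, with Hspa5 highest. Under flow it continued with Atf4, Ddit3, Asns, Ppp1r15a, Herpud1, Xbp1, Sesn2, Trib3 and Chac1, and of these neighbours only Ddit3 and Asns had ranges that did not overlap. Static cells had the same order except that Trib3 stood before Sesn2 by less than the spread. In control siRNA libraries the order was Hspa5, Asns, Atf4, Herpud1, Ddit3, Xbp1, Ppp1r15a, Sesn2, Chac1 and Trib3, and in silenced libraries Herpud1 stood before Atf4. The ranges of neighbours overlapped for Atf4 and Herpud1 and from Xbp1 to Trib3 in the controls, and for Asns and Herpud1, Atf4 and Ddit3, Xbp1 and Ppp1r15a, and Sesn2 and Chac1 in the silenced libraries.

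The members lie on 8 chromosomes (GENCODE M21, GRCm38). Hspa5 is at chr2:34771970-34777547, Chac1 at chr2:119351229-119354381, Trib3 at chr2:152337422-152344032, Sesn2 at chr4:132492032-132510501, Asns at chr6:7675169-7693254, Ppp1r15a at chr7:45522916-45526268, Herpud1 at chr8:94386438-94395377, Ddit3 at chr10:127290774-127296288, Xbp1 at chr11:5520659-5525893 and Atf4 at chr15:80255184-80257541. Besides Ddit3 with Mars1 and Gm4189, Ppp1r15a overlaps Tulp2 and Herpud1 overlaps Gm15890, each on the opposite strand, and Sesn2 overlaps Gm12981 on its own strand. These positions were not carried over to the newer annotation that the authors used.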

How the data were processed

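The authors deposited TPM for 21509 protein-coding genes, with 1 table per experiment. According to the study's methods, poly(A)-selected directional libraries were sequenced, reads were trimmed, quantified by kallisto on Ensembl transcripts and summed per gene by tximport. The submitters' processing notes name fastp 0.20.0, FastQC 0.11.8, MultiQC 1.8 and kallisto 0.46.2, while the methods name another trimmer. TPM sum to 1000000 per library, so depth is unknown and no count test was run.

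Here log2(TPM + 1) was compared with limma 3.58.1 in R 4.3.3 (trended eBayes) for genes averaging 1 TPM or more, and p-values were adjusted after Benjamini and Hochberg. Such differences understate the change of low genes. The procedure was tested on simulated data. Tables and plots were made with pandas 2.3.3, numpy 2.4.6 and matplotlib 3.10.9 under Python 3.11.15. The 10 members and the gene lists were chosen with earlier results of these data known. Named genes are the members, Ift88, up to 2 genes per list and comparison that were called or had the smallest p, and the 5 nearest profiles, and any others were chosen after their values were seen.

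Same-numbered flow and static libraries deviated together (correlations over genes of 0.294, 0.463, 0.425, 0.468, 0.662 and 0.600), so their numbers were taken to pair them. Numbers 1 and 3 did not match best with themselves, so their pairing is less certain. The reported fit has no block, so its flow intervals and p-values still hold the spread that same-numbered libraries share. With the block, 68 genes and 0 members were called for flow. The library with conflicting labels was grouped by its title. Alternatives covered the filter, pseudocount, scaling, library weights, the block, single libraries and subsets of replicates.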

Additional observations from a re-analysis of the deposited data

Results flagged for a closer look

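Among 40 groups of single-gene values examined for a sample far from the others, 4 held one, where about 2 arise by chance, and all 4 were libraries of replicate 6 of the flow experiment. Ddit3 was at 373.4 TPM in flow replicate 6 with the next library at 201.4 TPM, and at 686.4 TPM in static replicate 6 with the next at 253.7 TPM. Hspa5 was at 805.3 TPM in flow replicate 6 with the next at 451.5 TPM, and at 723.1 TPM in static replicate 6 with the next at 449.9 TPM. In each case the gap to the nearest library was between 0.660 and 0.799 of the group's range, above the 95% limit of Dixon's test for 6 samples.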

How the results depend on the processing

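No member was called in either comparison under any of 22 alternatives for flow and 13 for Ift88 siRNA. Of the other pathway genes, 0 were called for flow in the reported fit. The number was 1 with median-of-ratios scaling (Trib1), 1 with library weights (Trib1), 2 with the replicate number as a block (Trib1 and Gdf15), 2 in replicates 4 to 6 alone (Atf3 and Trib1), 1 with the block and pair 6 left out (Gdf15), and 0 to 1 when single libraries were left out (1 without flow replicate 2 or 3, Trib1). For Ift88 siRNA it was 0, and 2 without the fold threshold (Pdia6 and Atf3), of which Pdia6 was lost with scaling, without the filter and without any single library, and Atf3 without the filter. Over all genes, 12 calls for flow became 0 (181 at an unadjusted p under 0.05) with flow replicate 6 counted as static, 87 without flow replicate 2 and 5 without flow replicate 4.

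Several small flow differences of members changed sign. Ddit3 was at 0.025 in replicates 1 to 3. Trib3 was at 0.022 with scaling, 0.045 with weights, 0.23 in replicates 1 to 3 and 0.049 with pair 6 left out, with or without the block. Sesn2 was at 0.020 with scaling, 0.11 with flow replicate 6 counted as static, 0.14 in replicates 1 to 3 and 0.032 with pair 6 left out, with or without the block. Asns was at −0.13 in replicates 4 to 6, and Hspa5 at −0.26 with flow replicate 6 counted as static. Leaving out single libraries gave −0.35 to 0.17 for Ddit3, −0.095 to 0.13 for Trib3, −0.063 to 0.089 for Asns, −0.13 to 0.060 for Sesn2, −0.20 to 0.0052 for Xbp1, −0.12 to 0.23 for Hspa5 and −0.23 to 0.031 for Herpud1. For Ift88 siRNA it gave −0.057 to 0.0050 for Asns and −0.033 to 0.011 for Hspa5. The cause was not tested.

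Ift88 and control siRNA libraries share only a number, since their deviations correlated at 0.0464, 0.00276, 0.259 and 0.176, and numbers 3 and 4 alone matched best with themselves. With that number as a block, calls over all genes went from 25 to 44 and members from 0 to 0. TPM hold no depth, so counting error could not be given.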

Other observations

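Some stress regulators, named after their values were seen, lay apart in the siRNA comparison without passing the adjusted threshold. Atf5, a factor translated like Atf4 under stress, averaged 18.3 ± 1.51 TPM in silenced and 23.9 ± 2.20 TPM in control libraries (SD, n = 4 each, difference −0.37, limma adjusted p = 0.102), with every Ift88 siRNA library below every control. Gdf15 was at 890 ± 70.2 and 746 ± 37.7 TPM, with every Ift88 siRNA library above every control (difference 0.25, limma adjusted p = 0.112). Nupr1, a stress-induced chromatin protein, was at 216 ± 32.4 and 165 ± 13.4 TPM with overlapping groups (difference 0.38, limma adjusted p = 0.0991).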
